A study of Mus musculus with 4 samples.

Results

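L5-Htr2c, named in the deposited annotation after layer 5 and the gene Htr2c, is a small group of excitatory neurons of the mouse ventromedial prefrontal cortex (vmPFC). Its members are the cells that carry this name in the deposited subtype annotation, 320 of 8210 excitatory neurons with a subtype and of 20047 annotated cells in 4 libraries. The method was MERGE-seq. In it, 5 rAAV2-retro viruses, each with its own barcode behind EGFP and a short CAG promoter, were injected into the agranular insular cortex (AI), dorsomedial striatum (DMS), mediodorsal thalamus (MD), basolateral amygdala (BLA) and lateral hypothalamus (LH) of the same animal. All animals were male C57BL/6 mice, and all received the viruses. The age given, 8 weeks, is that at virus injection in the paper, and the cells were taken some weeks later. Unsorted libraries came from 3 mice, 1 library each, and the FAC-sorted library pooled cells of 3 further mice that had been sorted for EGFP, so that it is 1 sample. No uninjected animal was among these libraries, and cells that should not project (inhibitory neurons and non-neuronal cells of the same library) stand in for a background.

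rAAV2-retro is taken up at axon terminals and carried back to the cell body, where the EGFP transcript with its barcode is made. A neuron that reaches an injected area can therefore carry that area's barcode among its transcripts. Layer 5 holds the main output neurons of the cortex, among them intratelencephalic neurons that reach the other hemisphere and the striatum, extratelencephalic neurons that reach the thalamus and brainstem, and near-projecting neurons with mostly local axons. Htr2c encodes the serotonin 2C receptor, a Gq-coupled receptor. The tables used here hold barcode counts and cell annotation and no gene counts, so the level of Htr2c in these cells and their class within layer 5 were not analysed here.

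The whole readout rests on the letters of 5 short designed tags, which tell the reads of one target from those of another. They are given 5′ to 3′ in the order AI, DMS, MD, BLA and LH, with no letter singled out.
AI: ctgcaccgacgcatt
DMS: gaaggcacagacttt
MD: gttggctgcaatcca
BLA: aagacgccgtcgcaa
LH: tattcggaggacgac

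L5-Htr2c made up a similar, small part of the excitatory neurons in each unsorted mouse. It counted 122 of 2440 subtyped neurons in mouse 1 (5.00%, exact binomial 95% interval 4.17 to 5.94), 97 of 2146 in mouse 2 (4.52%, 3.68 to 5.49) and 97 of 2119 in mouse 3 (4.58%, 3.73 to 5.56). These intervals overlap, and they cover counting error only. The subtype name belongs to a whole cluster of the second round of clustering, so that all 320 members share it by construction. In the first round 318 of them sat in the same cluster, which has 332 cells. A single L5-Htr2c cell barcode was also found in another library, among 82 shared of 24704 cell barcodes.

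L5-Htr2c neurons were shallow for excitatory neurons and close to each other in depth. Their median was 13886.5 transcriptome UMIs in unsorted mouse 1, 14325 in mouse 2 and 15635 in mouse 3, against 21177.5, 21957 and 22945.5 in the other excitatory subtypes together. The ratio of medians was 0.663 (lowest 0.652, highest 0.681, n = 3 mice). It was below 1 in 3 of 3 mice, with an exact two-sided sign-flip p of 0.25, the smallest that 3 mice allow. Among the other subtypes, the mean over mice of the median ran from 18464.5 in L2/3-Calb1 to 23666.5 in L5-S100b, with 23134 in L5-Bcl6, so that no other subtype was as shallow. The interquartile range was 0.203 ± 0.0349 (SD, n = 3) of the median in L5-Htr2c, close to the 0.220 ± 0.0177 of L2/3-Calb1 and below the 0.734 ± 0.0582 of inhibitory neurons.

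Genes per neuron went with this depth. L5-Htr2c neurons had a median of 4746.5, 4752 and 4967 genes in unsorted mice 1, 2 and 3, and the other subtypes 5584.5, 5660 and 5746, a ratio of 0.851 that was below 1 in 3 of 3 mice (exact two-sided sign-flip p = 0.25). Among neurons of 12500 to 17500 transcriptome UMIs the medians lay closer, at 4835 ± 44.7 genes in L5-Htr2c, 4915.83 ± 13.7 in the other excitatory subtypes and 4777.5 ± 31.4 in inhibitory neurons (SD, n = 3). Depth still differed inside this window, with medians of 14292.5, 14542 and 15112.5 in L5-Htr2c and 15896.5, 16160 and 16157 in the other subtypes. The mitochondrial share of UMIs, a common sign of cell damage, was low in these neurons. Its median was 5.94%, 6.00% and 6.10% in the 3 mice, against 6.50%, 6.46% and 6.46% in the other subtypes, a difference of -0.461 percentage points in the same direction in 3 of 3 mice (exact two-sided sign-flip p = 0.25). L6-Syt6 had the lowest median, with 5.91% ± 0.0051, and the layer 5 subtypes L5-S100b and L5-Bcl6 had 7.40% ± 0.0731 and 8.11% ± 0.134.

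After sorting for EGFP the subtype was nearly gone. Only 4 of 1505 subtyped neurons of the FAC-sorted library were L5-Htr2c (0.266%, interval 0.0724 to 0.679), where the mean share of the unsorted mice would have given 70.7. The mean unsorted share was 17.7 times the sorted one. Mouse by mouse, the unsorted share was 18.8 times (7.16 to 70.1), 17.0 times (6.43 to 63.7) and 17.2 times (6.51 to 64.5) the sorted share, with exact binomial intervals for counting error. With 1 sorted library against 3 mice, an exact one-sided permutation test could not go below p = 0.25, the value it gave.

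**Figure D1:**
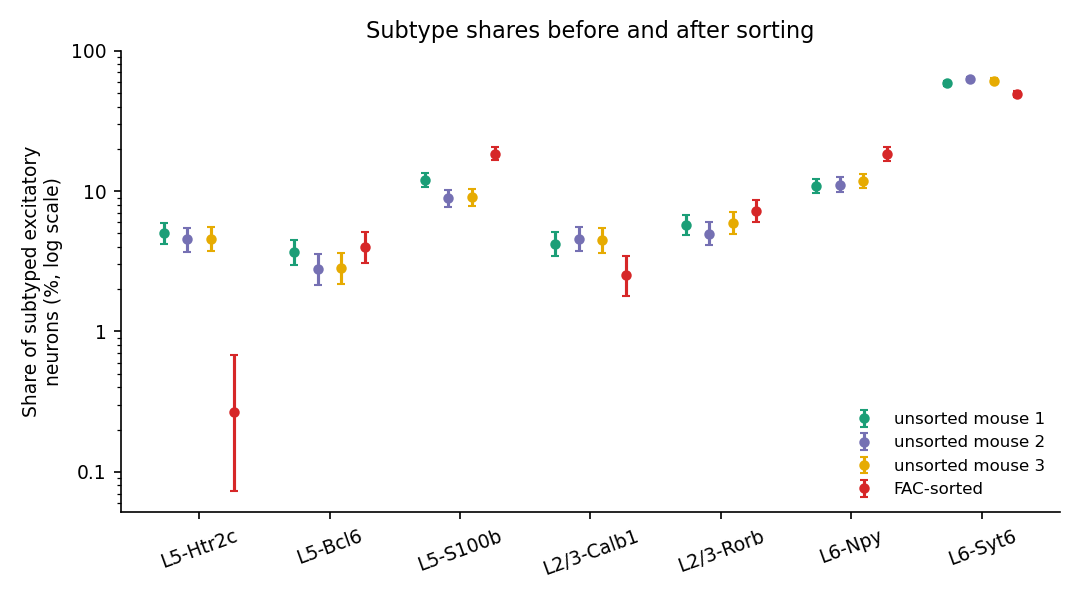
Share of each excitatory subtype among the subtyped neurons of a library (percent, log scale), 1 point per library with its exact binomial 95% interval. The FAC-sorted point of L5-Htr2c, at 0.266%, lies far below the 4.52 to 5.00% of the unsorted mice, while the other 6 subtypes change less.

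No other subtype lost as much. L2/3-Calb1 went from a mean of 4.42% ± 0.180 (SD, n = 3) to 2.52% and L6-Syt6 from 61.0% ± 2.35 to 49.1%, while the other 4 subtypes took a larger share after sorting, L5-S100b 1.85 times and L5-Bcl6 1.28 times. Cells that are not meant to project were also depleted. As a share of all annotated cells, inhibitory neurons went from 7.69% ± 0.561 to 8 of 1692 cells (0.473%), 16.3-fold, and non-neuronal cells from 53.1% ± 0.261 to 4.31%, 12.3-fold. On that denominator L5-Htr2c went from 1.72% ± 0.114 to 0.236%, 7.26-fold, while the other 6 subtypes took larger shares, from 1.39 times in L2/3-Calb1 to 4.50 times in L5-S100b. The loss was also there among neurons without a valid barcode, where the share went from 5.80% ± 0.203 to 3 of 725 (0.414%), 14.0-fold. Sorting, the pooled animals and the deeper FAC-sorted library, in which the other excitatory subtypes had a median of 31438 transcriptome UMIs, cannot be told apart here.

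The authors counted a barcode as valid above a threshold, which in the deposited matrix is 28 UMIs (AI), 101 (DMS), 114 (MD), 35 (BLA) or 103 (LH). None of the 316 unsorted members passed one, and most did not come near. These counts come after a filter on the same readout: the authors removed cells with unusually high barcode totals, and no annotated cell held more than 402, 485 and 528 barcode UMIs in unsorted mice 1, 2 and 3. Above the limit of their library lay 1244 of 24788 cells with barcode counts (5.02%), and how many of them were of this subtype was not analysed here. The limit lay near the 95th percentile of each library, so a share close to this follows from the cut itself. It is not the loss among excitatory neurons, whose number in the paper falls by a larger share than that of all its cells. The highest total of an annotated L5-Htr2c neuron was 138, 203 and 165. A count of 0, taken as at most 3 counts, allows a share of up to 0.949%, and the exact interval reaches 1.16%. The count closest to its own threshold reached a median of 14.9% of it, 13 of 316 neurons had a barcode above 50% of its threshold, and 6 above 75%. These counts were not made for other kinds of cell, so they have no background beside them. The highest unsorted counts were 26 UMIs of AI, 93 of DMS, 92 of LH, 56 of MD and 9 of BLA, which are 92.9%, 92.1%, 89.3%, 49.1% and 25.7% of the thresholds. The BLA barcode was at 0 in 237 of the 316 neurons, LH in 67, AI in 64, MD in 42 and DMS in 4. A count of 1 is set to 0 in the deposited tables for every barcode but AI, and with single UMIs kept in a recount from the reads these numbers were 151 (BLA), 23 (LH), 64 (AI), 12 (MD) and 1 (DMS). In that recount a BLA UMI was found in 53.3% of the members and 45.7% of inhibitory neurons (means over 3 mice).

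A second, looser call in the same deposit gives another count. The study's text describes the stricter thresholds only, and its deposited matrix of valid neurons follows them. The number of validly barcoded neurons its text gives for this subtype matches the looser call. Which call that number came from is not stated. The column of the subtype table that names a neuron as barcoded marked 9 L5-Htr2c neurons, 0 of 122 in mouse 1, 4 of 97 in mouse 2 (4.12%, interval 1.14 to 10.2), 4 of 97 in mouse 3 and 1 of 4 in the FAC-sorted library. All 2891 neurons it marks hold more than 25 UMIs of AI, 59 of DMS, 105 of MD, 35 of BLA or 81 of LH. These limits are not given by the authors. They were read from the column itself, as the highest count of each barcode among the neurons it leaves out. The looser call took L5-Htr2c from 1 to 9 of 320 neurons (0.312 to 2.81%), which is a large ratio over a base of 1 neuron and the smallest gain in share of the 7 subtypes. L5-Bcl6 went from 34.1 to 50.4%, L5-S100b from 52.3 to 66.2% and L6-Npy from 37.9 to 57.5%, and inhibitory neurons went from 17 to 22 of 1420 (1.55%). These shares pool the 4 libraries, to which the sorted one gave unequal parts. It held 4 of the 320 L5-Htr2c neurons, 60 of 270 of L5-Bcl6, 278 of 954 of L5-S100b and 277 of 1031 of L6-Npy. By either call L5-Htr2c had the lowest share of the 7 subtypes.

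Of the 8 unsorted neurons of the looser call, 6 passed it through DMS, 1 through AI and 1 through LH. In mouse 2, the neuron that passed through LH had 92 UMIs of LH, 57 of DMS, 28 of MD, 17 of AI and 9 of BLA. The neuron that passed through AI had 26 UMIs of AI among 69. The other neurons of mouse 2 had 68 and 86 UMIs of DMS. In mouse 3 the 4 neurons had 73, 83, 86 and 93 UMIs of DMS among 121 to 165 of all barcodes. Each of the 8 thus held UMIs of all 5 barcodes, and the leading barcode made up 37.7 to 64.1% of the total. These 8 neurons held 1187 of the barcode UMIs of all 316 unsorted members (12.7%). Their median total was 155 UMIs at a median of 18098 transcriptome UMIs, against 24 UMIs at 14451 in the other 308 neurons.

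Mouse 1 had neurons of a like total that neither call marked. One had 138 barcode UMIs spread over MD (48), LH (47) and DMS (35), and another had 102 with 55 of LH. In the FAC-sorted library, the valid neuron had 168 UMIs of DMS, 55 of MD, 31 of LH, 21 of AI and 11 of BLA at 39340 transcriptome UMIs. The other sorted members had totals of 44, 89 and 125 UMIs, with no count above 42.9% of a threshold except a DMS count of 48 (47.5%). The neuron with 44 had 3801 transcriptome UMIs and a mitochondrial share of 17.4%, the others 2.47 to 4.59%.

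**Figure D2:**
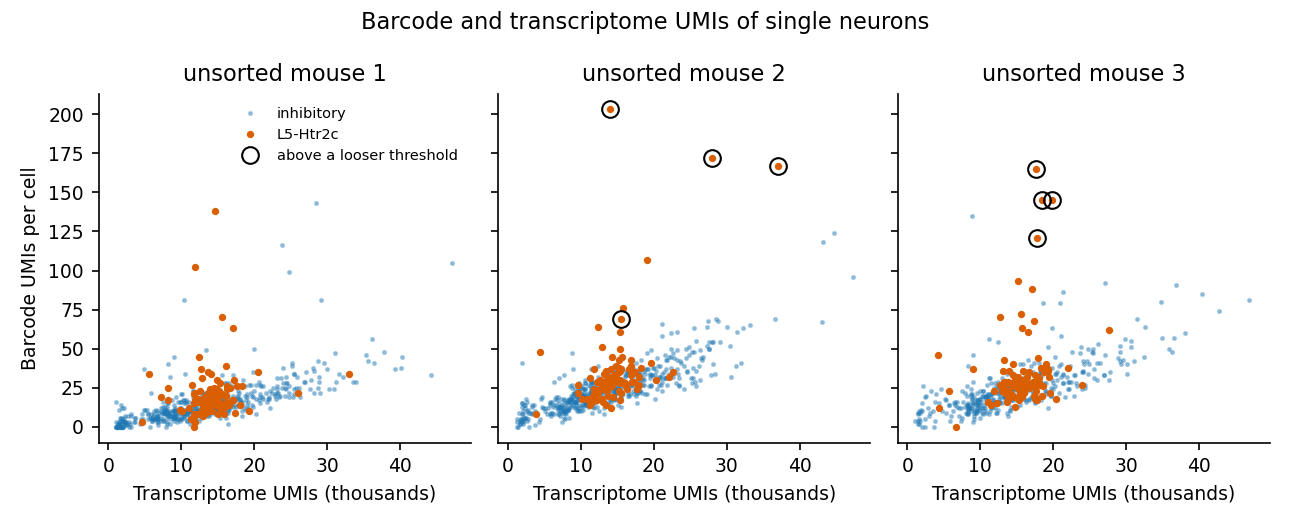
Barcode UMIs of all 5 targets against transcriptome UMIs (in units of 1000) of single L5-Htr2c neurons (orange) and inhibitory neurons (blue) without a valid barcode in the 3 unsorted mice, with circles around the 8 L5-Htr2c neurons above a looser threshold. Most L5-Htr2c neurons lie in or just above the band of inhibitory neurons, and a few in each mouse lie well above most cells of their depth, at up to 138, 203 and 165 UMIs, where single inhibitory neurons reach 143, 124 and 135.

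Below the thresholds, L5-Htr2c neurons carried slightly more barcode than cells that should not project. Summed over the members without a valid barcode, barcode UMIs of all targets per 10000 transcriptome UMIs (the barcode rate) were 14.1 in unsorted mouse 1, 24.4 in mouse 2 and 22.6 in mouse 3. The rates of inhibitory neurons were 11.4, 18.1 and 16.9, and those of non-neuronal cells 11.6, 19.3 and 17.8. Mouse 1 was lowest in all 3 kinds of cell, so the kinds were compared within each mouse. L5-Htr2c was higher than inhibitory neurons by 1.31-fold (lowest 1.24, highest 1.35) and than non-neuronal cells by 1.25-fold (1.21 to 1.27), in 3 of 3 mice each. The mean log2 ratios were 0.39 ± 0.066 and 0.32 ± 0.0356 (SD, n = 3), larger than their spread over mice. The exact two-sided sign-flip test gave p = 0.25 for both, the smallest possible with 3 mice, so no ratio of this kind could pass 0.05. With single UMIs kept for all barcodes the ratios were 1.29 and 1.13 (1.05 to 1.17), again above 1 in 3 of 3 mice. Leaving out cells with a valid barcode removed comparison cells but no unsorted L5-Htr2c neuron. Of the inhibitory neurons 492 of 499 stayed in mouse 1 and 409 of 417 in mouse 3. With valid cells kept, the ratios were 1.20 (1.12 to 1.35) and 1.19 (1.16 to 1.21), above 1 in 3 of 3 mice.

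The excess over non-neuronal cells depended on the cell type it was set against. Astrocytes came closest, with rates of 13.5, 22.8 and 22.0, so that L5-Htr2c was 1.05-fold higher on average (1.03 to 1.07). Oligodendrocytes were farthest, with 1.47-fold (1.40 to 1.53). Non-neuronal cells were also among the cells from which the authors set the thresholds, which use the same counts but not the ratio given here.

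**Figure D3:**
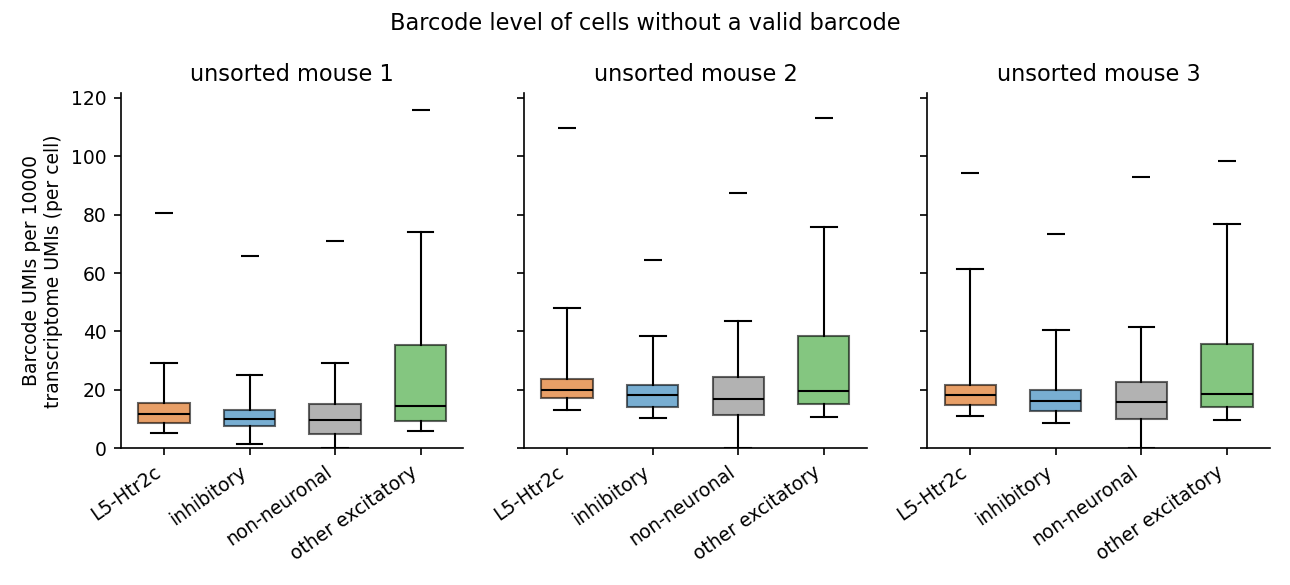
Barcode UMIs per 10000 transcriptome UMIs of single cells without a valid barcode, by mouse and kind of cell. Boxes span the quartiles with the median as a line, whiskers the 5th to 95th percentile, and the dash above each box the 99th percentile. The L5-Htr2c median lies above those of inhibitory and non-neuronal cells in each mouse, and the box of the other excitatory subtypes reaches much higher.

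Depth bears on this comparison, since the median depth of L5-Htr2c neurons was 3.48 to 3.66 times that of non-neuronal cells, whose median was 3988 to 4277 transcriptome UMIs. With comparison cells weighted to the depths of the members, L5-Htr2c held 19.9, 36.0 and 35.3 barcode UMIs per neuron against 14.98, 25.8 and 25.5 in inhibitory neurons, a difference of 8.29 ± 2.92 UMIs (1.37-fold, n = 3). Against non-neuronal cells weighted alike the difference was 11.4 ± 3.37 UMIs (1.61-fold). Few non-neuronal cells reach such depths. Between 12500 and 17500 transcriptome UMIs lay 33 of 3503, 39 of 3187 and 42 of 3059 in mice 1, 2 and 3. Of these, 21, 22 and 26 were endothelial cells and 8, 13 and 11 oligodendrocytes. The weighting thus also changed the mix of cell types, and the effect of this was not tested. Without any account of depth, the mean per cell was 1.37-fold that of inhibitory neurons and 4.04-fold that of non-neuronal cells, and the median 1.28-fold and 4.09-fold. In the window of 12500 to 15000 transcriptome UMIs, the median was 16.5, 28 and 27 barcode UMIs in L5-Htr2c neurons of unsorted mice 1, 2 and 3 (123 neurons). It was 14, 24 and 22 in 198 inhibitory neurons and 10, 20 and 17.5 in 73 non-neuronal cells. Between 15000 and 17500 the medians by mouse were 16.5, 35 and 29 in L5-Htr2c. Inhibitory neurons there had 15, 28 and 25, and non-neuronal cells 10, 21.5 and 20. In inhibitory neurons barcode UMIs followed depth closely, with Spearman correlations over cells of a mouse of 0.768 to 0.833, and less so in L5-Htr2c, with 0.287 to 0.463, where depth also varied less.

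The excess was partly that of a few neurons and partly that of the bulk. The reference was the inhibitory neurons of the same mouse without a valid barcode. In unsorted mice 1, 2 and 3, 61.5%, 68.0% and 63.9% of the members lay above the median barcode rate of this reference. Above its 95th percentile lay 8.20%, 10.3% and 10.3% of the members, against 5.08%, 5.04% and 5.13% of these inhibitory neurons. Each mouse was thus on the same side, and these shares were not tested. Using the median over cells in place of the summed rate, the ratio was 1.13 to inhibitory neurons and 1.18 to non-neuronal cells. With the neurons above a looser threshold left out of each group it was 1.22 and 1.16. Each of these ratios was above 1 in 3 of 3 mice.

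The 5 barcodes did not share the excess evenly. By summed rate, DMS, the most abundant barcode, had the smallest ratio, and LH was high both in the deposited counts and with single UMIs kept. BLA was close to LH in the deposited counts, where single UMIs of AI alone are kept, but not in the recount. The DMS rate in L5-Htr2c was 7.74, 12.7 and 13.2 in unsorted mice 1, 2 and 3, against 7.47, 12.4 and 11.6 in non-neuronal cells, which is 1.06-fold (1.02 to 1.14). Against inhibitory neurons, with 6.92, 10.9 and 10.4, it was 1.18-fold (1.12 to 1.26). With comparison cells weighted to the depths of the members, the DMS ratio was 1.42-fold (1.26 to 1.56) to non-neuronal cells and 1.22-fold (1.15 to 1.31) to inhibitory neurons, and the LH ratio 2.32-fold (2.03 to 2.62) and 1.87-fold (1.75 to 2.12). For non-neuronal cells the weighting again rests on few cells, with a changed mix of cell types. The LH rate was 2.60, 4.60 and 3.06 in L5-Htr2c, 1.65, 2.25 and 1.77 in inhibitory neurons and 1.40, 2.09 and 1.5 in non-neuronal cells, so that the groups differed by 1.77-fold (1.58 to 2.04) and 2.03-fold (1.86 to 2.20). With single UMIs kept, LH was at 1.69-fold (1.49 to 1.96) and 1.45-fold (1.27 to 1.64), and DMS at 1.18-fold and 1.04-fold (0.988 to 1.12).

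The LH ratio to inhibitory neurons rested in part on a few neurons. It was 1.42-fold (1.14 to 1.60) without the top 5 percent of cells of each group and 1.28-fold (1.20 to 1.32) by the median over cells, where AI was at 1.33-fold, MD at 1.20-fold and DMS at 1.09-fold.

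By summed rate MD and AI lay between. The MD rate was 2.52, 4.30 and 3.89, which is 1.38-fold that of inhibitory neurons (1.33 to 1.42) and 1.45-fold that of non-neuronal cells (1.29 to 1.60). The AI rate was 1.05, 2.14 and 1.92, 1.33-fold (1.13 to 1.5) and 1.19-fold (0.975 to 1.35), and in the deposited counts AI was the only barcode with a mouse in which a control group was higher, non-neuronal cells of mouse 1 with 1.07. The AI excess over inhibitory neurons depended on leaving out cells with a valid barcode. With these kept, the AI ratio was 1.00-fold (lowest 0.627), above 1 in 2 of 3 mice. The BLA rate was the lowest of all, 0.239, 0.656 and 0.569, and 1.66-fold (1.57 to 1.71) and 2.27-fold (1.77 to 2.76) those of inhibitory and non-neuronal cells, at 41, 94 and 86 UMIs in all. The BLA ratios depended on the single UMIs set to 0: with these kept they were 1.32-fold (1.29 to 1.36) and 1.12-fold (0.945 to 1.24), the second above 1 in 2 of 3 mice. MD was then at 1.35-fold and 1.14-fold, and AI kept its values. After Benjamini-Hochberg adjustment over the 5 barcodes, the exact two-sided sign-flip p was 0.25 for each against inhibitory neurons and 0.312 against non-neuronal cells, with 0.50 for AI.

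**Figure D4:**
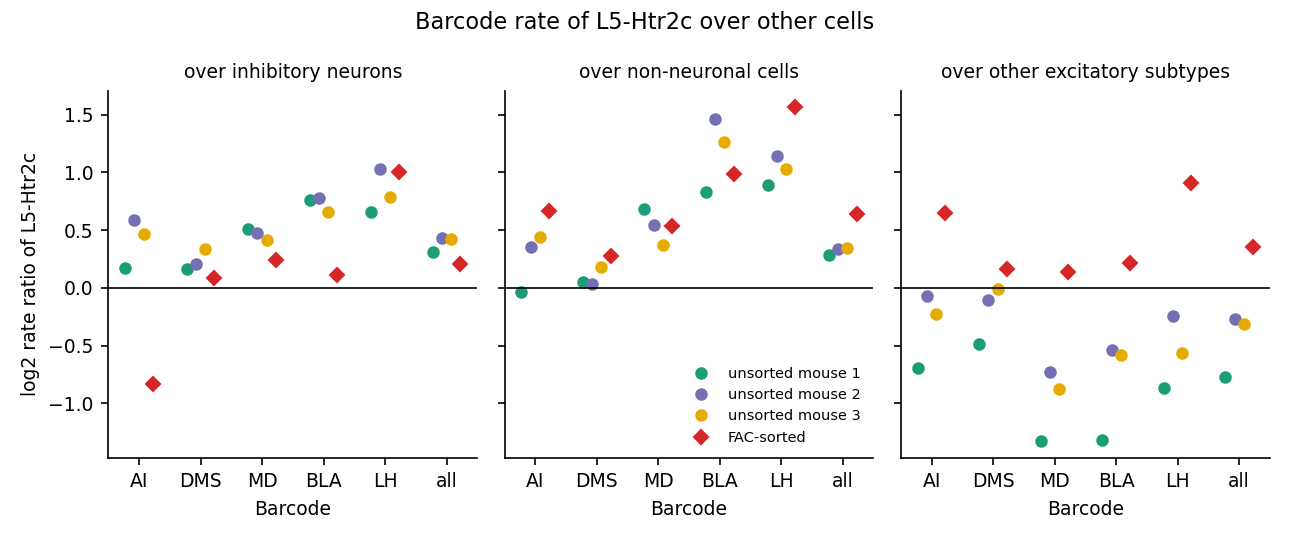
log2 ratio of the barcode rate (deposited counts) of L5-Htr2c to that of 3 kinds of comparison cell, by barcode, 1 circle per unsorted mouse and a diamond for the FAC-sorted library, which holds 3 such neurons. Circles lie above 0 against inhibitory and non-neuronal cells, except AI in mouse 1, and below 0 against the other excitatory subtypes.

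Set against DMS in the same mouse, the LH ratio to non-neuronal cells was higher by 0.93 ± 0.15 on the log2 scale and the BLA ratio by 1.09 ± 0.33, in 3 of 3 mice each. To inhibitory neurons the same differences were 0.59 ± 0.20 and 0.49 ± 0.15. The exact two-sided sign-flip p was 0.25 for each of these before adjustment. With single UMIs kept, the differences to non-neuronal cells were 0.48 ± 0.19 for LH (3 of 3 mice) and 0.11 ± 0.15 for BLA (2 of 3), and to inhibitory neurons 0.53 ± 0.21 and 0.16 ± 0.10 (3 of 3 each). In a further count, a UMI found with more than 1 barcode in a cell went to the barcode with the most reads. BLA was then at -0.14 ± 0.18 and -0.13 ± 0.32 (higher in 1 of 3 mice each), and LH at 0.50 ± 0.22 and 0.53 ± 0.23 (3 of 3 each). The makeup of the barcode UMIs, from the deposited counts, also differed between kinds of cell. In L5-Htr2c, DMS took 55.0% ± 3.16 of them, MD 17.5% ± 0.310, LH 16.9% ± 2.96, AI 8.23% ± 0.725 and BLA 2.30% ± 0.536 (SD, n = 3). Non-neuronal cells had 64.5% ± 0.746 DMS and 10.4% ± 1.81 LH, inhibitory neurons 61.0% ± 0.756 and 12.5% ± 1.97, and the other excitatory subtypes 46.2% ± 1.29 and 18.1% ± 1.76. DMS had the most UMIs in 297 of the 316 unsorted members. It took the largest share in each of the other kinds of cell as well, for which such a count was not made here.

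The upper end of the distribution was counted as well. The reference was the inhibitory neurons without a valid barcode, 492 of 499, 496 of 496 and 409 of 417 by mouse. Leaving out valid cells cut the upper end of this reference and removed no unsorted L5-Htr2c neuron. Counts with valid cells kept are not given here. Among the unsorted members, 16 of 316 exceeded the 99th percentile of the LH rate of these inhibitory neurons of their mouse (4 of 122, 5 of 97 and 7 of 97 by mouse, and 5.06% in all). Of these inhibitory neurons 1.07% exceed that level. For BLA it was 15 (4.75%), for MD 8 (2.53%), for AI 6 (1.90%) and for DMS 2 (0.633%). LH and BLA thus differed by 1 neuron, and above the 95th percentile BLA led with 40 neurons against 34 for LH. With single UMIs kept, 16 neurons exceeded the 99th percentile for LH and 2 for BLA, and 32 and 30 the 95th.

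Nearly every kind of cell held some barcode, so a count above 0 told little. Recounted from the reads, 92.9% ± 1.93 of L5-Htr2c neurons had at least 1 LH UMI, against 86.7% ± 1.94 of inhibitory neurons and 58.4% ± 5.89 of non-neuronal cells, at median depths of 13886.5 to 15635, 12652 to 13867 and 3985.5 to 4272 transcriptome UMIs. With each cell thinned to 5000 transcriptome UMIs the shares drew together, to 66.7% ± 7.87, 61.7% ± 4.44 and 61.2% ± 4.92. Thinned DMS shares were 98.0% ± 1.72, 97.7% ± 2.49 and 97.6% ± 2.41, and thinned AI shares 48.4% ± 11.6, 42.2% ± 7.76 and 42.5% ± 5.61. BLA was found in 53.3% ± 11.5, 45.7% ± 10.7 and 21.3% ± 4.80 of the cells, and in 25.6% ± 6.56, 21.1% ± 5.63 and 21.1% ± 4.40 after thinning. MD was found in 96.7% ± 4.94, 89.7% ± 7.07 and 66.5% ± 10.2, and in 75.2% ± 11.1, 70.4% ± 11.6 and 69.2% ± 11.3 after thinning. For each of the 5 barcodes the mean thinned share of these 3 kinds of cell was highest in L5-Htr2c. Levels differed between mice in all kinds, so the kinds were compared within each mouse. The thinned MD, LH and BLA shares of L5-Htr2c were above those of both other kinds in every mouse. For MD they were 62.7%, 83.9% and 78.9%, against 57.3%, 79.4% and 74.6% in inhibitory neurons. The AI share was below that of non-neuronal cells in mouse 1, and the DMS share below both kinds in mouse 3. These differences were not tested. Thinning left out 5 of the 316 unsorted L5-Htr2c neurons and 6967 of 9734 non-neuronal cells, those that were shallower.

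Against the other excitatory subtypes, the order turned. Among cells without a valid barcode, the other subtypes together had barcode rates of 24.2, 29.4 and 28.0 in unsorted mice 1, 2 and 3, and L5-Htr2c was at 0.731 of this (0.585 to 0.828), lower in 3 of 3 mice (exact two-sided sign-flip p = 0.25). By the summed rate of all 5 barcodes, L5-Htr2c was the lowest of the 7 subtypes in each unsorted mouse, closest to L6-Syt6 with 22.0 in mouse 1 and to L2/3-Calb1 with 26.2 in mouse 2 and 23.4 in mouse 3. L5-Bcl6 was highest in mice 1 and 2, with 38.7 and 37.9, and L6-Npy in mouse 3, with 36.1. L5-S100b had 30.4, 32.9 and 25.8. Taken singly, the barcodes gave a mixed order. L5-Htr2c was lowest in 3 mice for BLA, in 2 for MD and in 1 each for AI, DMS and LH. For LH in mouse 2 it was 5th from the lowest of 7, with 4.60 against 3.31 in L2/3-Calb1. By summed rate the gap was widest for MD, where L5-Htr2c was at 0.508 (0.399 to 0.603), and smallest for DMS, at 0.870 (0.714 to 0.992). With comparison cells weighted to the depths of the members it was widest for BLA, at 0.492, with MD at 0.524 and DMS at 0.724. Leaving out valid cells removed no unsorted L5-Htr2c neuron. Of the other subtypes it left 1902 of 2318, 1624 of 2049 and 1593 of 2022 neurons in mice 1, 2 and 3. With valid cells kept, the ratio for all barcodes was 0.421. The thresholds differ by barcode, so the order of the barcodes may also depend on this step.

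The gap lay mostly in the upper part of the distribution. The median neuron of L5-Htr2c had a rate of 11.7, 20.1 and 18.2, against 14.5, 19.6 and 18.7 in the other subtypes, a ratio of 0.930 that was above 1 in mouse 2. By this median L5-Htr2c was the lowest subtype in mouse 1 and the third lowest in mice 2 and 3, above L6-Syt6 and L2/3-Calb1. The 95th percentile of barcode UMIs per neuron was 36.9, 70.4 and 89.0 in L5-Htr2c and 149, 171 and 173 in the other subtypes, again without valid neurons.

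The molecules behind the counts showed the same order. A molecule is a combination of cell, barcode and UMI in the projectome reads, and one seen in a single read has the least support. In cells without a valid barcode, 77.6%, 74.0% and 70.0% of the combinations of L5-Htr2c had 1 read in unsorted mice 1, 2 and 3. This was 81.5%, 79.9% and 76.0% in inhibitory neurons, 80.6%, 78.6% and 74.8% in non-neuronal cells, and 64.8% ± 1.35 (SD, n = 3) in the other excitatory subtypes. L5-Htr2c was lower than inhibitory neurons by 5.28 ± 1.19 percentage points and than non-neuronal cells by 4.14 ± 0.980, in 3 of 3 mice each (exact two-sided sign-flip p = 0.25). All values from reads include single UMIs, for which the rate of L5-Htr2c was 1.29-fold that of inhibitory neurons and 1.13-fold that of non-neuronal cells. Counting only combinations of at least 2 reads, the barcode rate of L5-Htr2c was 1.61-fold that of inhibitory neurons and 1.34-fold that of non-neuronal cells.

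UMIs were also shared between barcodes. A UMI found with more than 1 barcode in the same cell made up 12.1%, 14.8% and 16.7% of the combinations of L5-Htr2c, 6.19% ± 1.34 of those of inhibitory neurons, 7.83% ± 0.657 of those of non-neuronal cells and 30.1% ± 2.31 of those of the other excitatory subtypes. The difference from inhibitory neurons was 8.37 ± 2.92 percentage points (higher in 3 of 3 mice, exact two-sided sign-flip p = 0.25). Giving each shared UMI to the barcode with the most reads and dropping ties, again with single UMIs kept, the rate of L5-Htr2c was 1.21-fold that of inhibitory neurons (1.18 to 1.23) and 1.07-fold that of non-neuronal cells (1.03 to 1.10). By barcode and against non-neuronal cells, LH was then at 1.42-fold (1.3 to 1.62), against 1.45-fold with shared UMIs counted for each barcode. BLA went from 1.12-fold to 0.912 (0.864 to 0.993), lower in 3 of 3 mice, and DMS from 1.04-fold to 1.01, above 1 in 1 of 3 mice.

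**Figure D5:**
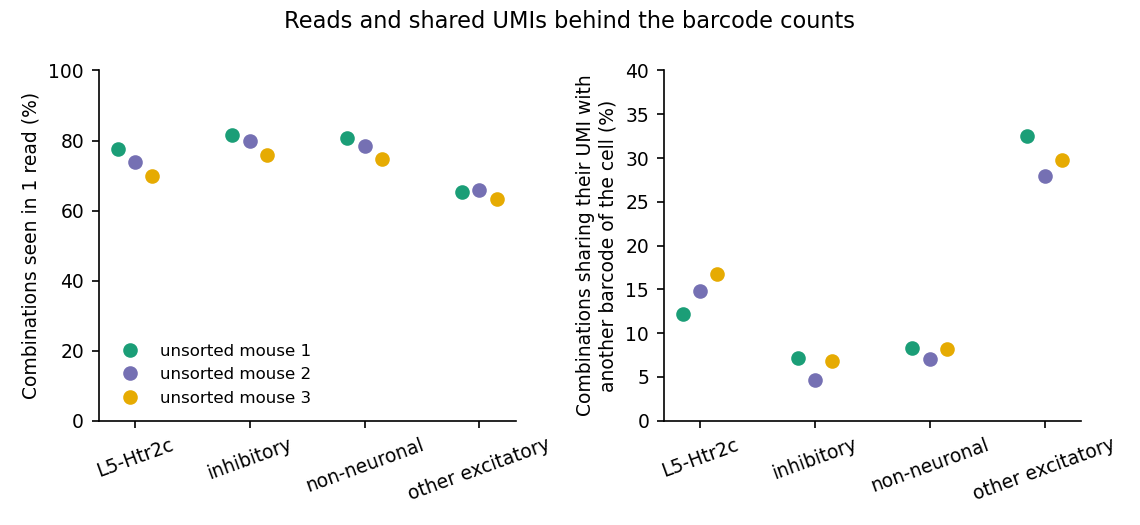
Percent of barcode combinations seen in 1 read (left) and percent whose UMI was also found with another barcode of the same cell (right), in cells without a valid barcode, 1 point per unsorted mouse. L5-Htr2c lies between inhibitory and non-neuronal cells on one side and the other excitatory subtypes on the other in both panels.

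The 8 unsorted neurons above a looser threshold were picked by barcode counts from the same reads, so their values here are no separate evidence. All came from mice 2 and 3. Of their combinations 55.3% had 1 read and 45.8% shared their UMI with another barcode of the cell, against 76.1% and 10.4% in the other unsorted members. In the other members of mice 2 and 3, 77.6% and 73.2% had 1 read, and 8.20% and 11.0% shared their UMI. In the valid neuron of the FAC-sorted library, 61.2% had 1 read and 23.1% shared their UMI. The 3 other sorted L5-Htr2c neurons had a summed barcode rate of 60.6, above the 52.5 of 6 inhibitory neurons, the 38.9 of 73 non-neuronal cells and the 47.5 of 722 neurons of other subtypes in that library, and these are values of a single library. With neurons of the other subtypes weighted to the depths of these 3, barcode UMIs per neuron were 86.0 in L5-Htr2c and 84.9 in the other subtypes.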

How the data were processed

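Cell types, subtypes and quality measures were taken from the annotation the authors deposited, made from Cell Ranger output on mm10, and barcode counts from the deposited tables of UMI counts per cell and target, in which a count of 1 is set to 0 for DMS, MD, BLA and LH but kept for AI (4186 such counts). Mitochondrial and ribosomal percent values were deposited with the annotation. Reads were recounted with up to 2 mismatches to a tag (12249 of 100235 counts of annotated cells differed, each 1 against 0). Projectome reads numbered 20443286 to 32895529 per library, 86.4 to 91.6% with a tag. The members and lists were chosen with earlier results of these data known. Cells were not treated as replicates: values were formed per mouse and compared by exact sign-flip tests, with Python 3.11.15, numpy 2.4.6, pandas 2.3.3 and scipy 1.17.1. Cells with a valid barcode were left out of rates, and depth weighting used windows with at least 5 comparison cells. Shares carry exact Clopper-Pearson 95% intervals, and a share of 0 also the limit of 3 counts. The text names all 5 barcodes, L5-Htr2c in every library, L5-S100b, L5-Bcl6 and the groups with the highest and lowest values; single neurons above a looser threshold or with the highest totals were chosen after their values were seen. Without gene counts no doublet caller was run. Of the series-wide tables, 18 columns were not used. The code was tested on simulated data (7 of 7 quantities recovered within 5 percent).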

Additional observations from a re-analysis of the deposited data

Results flagged for a closer look

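In the FAC-sorted library, which holds 3 L5-Htr2c neurons without a valid barcode, 7 of the 18 rate ratios went the other way from every unsorted mouse. These differences were not tested, and their cause was not tested. For all barcodes together, L5-Htr2c was at 1.27 of the other excitatory subtypes after sorting, against 0.585 to 0.828 in the unsorted mice. By barcode the sorted ratio to the other subtypes was 1.87 for LH, 1.56 for AI, 1.16 for BLA, 1.12 for DMS and 1.10 for MD, where each unsorted mouse was below 1. Of the 3 neurons, 1 had 3801 transcriptome UMIs and a rate of 116. With neurons of the other subtypes weighted to the depths of the 3, the sorted ratio was 1.01 for all barcodes. By barcode it was then 1.48 for AI, 1.37 for LH, 1.04 for BLA, 0.990 for MD and 0.830 for DMS. The AI ratio to inhibitory neurons was 0.560 after sorting, with rates of 4.46 in the 3 L5-Htr2c and 7.96 in 6 inhibitory neurons, against 1.13 to 1.5 in the unsorted mice.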

How the results depend on the processing

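Across 297 alternative values of 23 results, 286 kept their direction and their side of the threshold, but no test over 3 mice could pass 0.05, so this speaks for direction only. For a ratio, direction is the sign of its mean log2 over mice, and some kept it narrowly. DMS against non-neuronal cells was 1.00-fold without cells above the looser thresholds, higher in 1 of 3 mice. AI against inhibitory neurons was 1.00-fold with valid cells kept. The median over cells, leaving out the top 5 percent of cells, leaving out cells above the looser thresholds, the looser call and the share of all cells were chosen after seeing the data. Direction turned for 4 values, for which the cause was not tested. These come from reads with single UMIs kept. With each shared UMI counted once, for its most-read barcode, the log2 ratio of L5-Htr2c was -0.13 to non-neuronal cells for BLA, and 0.28 for AI and 0.0577 for BLA to the other excitatory subtypes. With UMIs of at least 2 reads it was -0.37 to non-neuronal cells for BLA. For all barcodes the ratio ranged from 1.13 to 1.61 against inhibitory neurons, from 1.07 to 4.04 against non-neuronal cells (the highest without division by depth) and from 0.421 to 0.930 against the other excitatory subtypes (the lowest with valid cells kept). The number of L5-Htr2c neurons with a valid barcode, 1 as deposited, was 12 and 76 with thresholds at the upper 0.1% and 1% of the counts of non-neuronal cells, 0 and 22 at those of inhibitory neurons, 3 with thresholds on barcode UMIs per transcriptome UMI, 0 with UMIs of at least 2 reads, 1 with exact matches and 9 by the looser call. With the upper 1% of non-neuronal cells for each barcode, 2.11% of those cells, which are shallower, passed too, against 23.8% of L5-Htr2c, and with the upper 1% of inhibitory neurons 2.11% of those against 6.88%. The share before over after sorting was 14.0 to 22.4 under other denominators of excitatory neurons and depth limits, and 7.26 among all annotated cells, of which excitatory neurons took a larger part after sorting. No BLA ratio of medians over cells could be formed, nor, against non-neuronal cells, one for AI, MD or LH, since a median was 0. Ratios to other cells were formed within each mouse. For sorted against unsorted libraries, no paired analysis was possible because the sorted library shares no replicate number with the unsorted mice.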
